A study of Mus musculus with 3 samples.

Results

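Deletional Sμ to Sγ1 junctions are the joins that remove the DNA between the switch region Sμ and the switch region Sγ1 and so place the IgG1 constant gene behind the rearranged variable gene. They were taken as all junctions whose prey lay in Sγ1 (chromosome 12 of mm9, positions 114558000 to 114588000) on the minus strand, the strand of the bait. The rule found 489 such junctions among the 2995 junctions of the 3 libraries. DNA-PKcs PQR/PQR replicate 1 held 246 of 1681 junctions, DNA-PKcs PQR/PQR replicate 2 held 64 of 472 and DNA-PKcs-/- replicate 5 held 179 of 842. The pools deposited for each genotype held 2017 of 4167 for PQR/PQR and 6739 of 12662 for DNA-PKcs-/-, and the 3 libraries were contained in them.

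High-throughput genome-wide translocation sequencing (HTGTS) had been applied to splenic B cells without CD43, from 129 mice that carried preassembled IgH and IgK loci, after 4 days of culture with anti-CD40 (1 ng/mL) and IL-4 (20 ng/mL). PQR/PQR mice are homozygous for alleles that alter a cluster of phosphorylation sites of DNA-PKcs, and the DNA-PKcs-/- mice lack the protein and served the study as its control. Both genotypes share the preassembled loci, and wild-type cells were not analysed here. The labels give neither the age of the mice nor whether separate mice gave the 2 libraries of PQR/PQR, so their spread may be technical. The data hold DNA junctions and no expression values, so the B cell label could not be set against marker genes.

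Class switching starts when the deaminase AID acts on transcribed switch regions, most often at short motifs such as AGCT, and the resulting breaks in Sμ and in a downstream switch region are joined. DNA-PKcs is the kinase that Ku recruits to broken ends in non-homologous end joining, which makes mostly direct joins and joins with short microhomology (MH). Joins made by alternative pathways more often carry longer MH, that is, bases that could have come from either end. On this locus transcription runs towards lower coordinates, so that the 3′ end of Sγ1 is at the low end of the window.

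The bait is shown because every junction starts in it. It was read on the minus strand of chr12:114669158-114669257, beginning with the nested primer, and its majority base was shared by at least 96.3% of the reads at each of the 100 places. Capitals mark AGCT, at bait bases 64 to 67 and 85 to 88.
Sμ bait: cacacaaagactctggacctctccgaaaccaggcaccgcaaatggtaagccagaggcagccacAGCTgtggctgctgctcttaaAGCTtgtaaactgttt

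Joins of each class show what was counted, with 25 read bases on either side of the join, bait on the left and Sγ1 on the right. The join with the longest MH of each library had 10, 7 and 9 bp in PQR/PQR replicate 1, PQR/PQR replicate 2 and DNA-PKcs-/- replicate 5, and capitals mark the MH. MH is counted here as the overlap of the bait and prey alignments.
PQR/PQR replicate 1, prey break at position 114568049: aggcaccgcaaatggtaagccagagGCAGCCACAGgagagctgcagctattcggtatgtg
PQR/PQR replicate 2, prey break at position 114571325: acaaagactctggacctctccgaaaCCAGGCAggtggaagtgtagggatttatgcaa
DNA-PKcs-/- replicate 5, prey break at position 114567495: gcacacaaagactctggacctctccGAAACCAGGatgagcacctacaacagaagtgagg
In both PQR/PQR examples the first 10 prey bases of the read differed from the germline bases listed beside the break, GCAGCTACAG and CCAGGACAGG. The difference began within the capitals, so the listed germline prey does not hold the whole marked stretch. Those 10 and 7 bp are thus alignment overlaps and not unbroken identity of bait and germline prey. In the DNA-PKcs-/- example the first 10 prey bases were the same. Over all deletional junctions they were the same in 231 of 244 listed for PQR/PQR replicate 1, 63 of 64 for PQR/PQR replicate 2 and 171 of 179 for DNA-PKcs-/- replicate 5. A direct join has no shared and no added base, and the one nearest the median position of each library is shown, with the join between the 25th and 26th base.
PQR/PQR replicate 1, prey break at position 114569409: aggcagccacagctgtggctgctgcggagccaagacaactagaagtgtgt
PQR/PQR replicate 2, prey break at position 114571157: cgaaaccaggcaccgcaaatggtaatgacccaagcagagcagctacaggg
DNA-PKcs-/- replicate 5, prey break at position 114568264: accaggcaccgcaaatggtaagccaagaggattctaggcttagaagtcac
The longest insertions had 25, 16 and 25 bp, and capitals mark the inserted bases.
PQR/PQR replicate 1, prey break at position 114567366: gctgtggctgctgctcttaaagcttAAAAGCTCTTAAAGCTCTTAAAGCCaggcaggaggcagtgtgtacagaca
PQR/PQR replicate 2, prey break at position 114573383: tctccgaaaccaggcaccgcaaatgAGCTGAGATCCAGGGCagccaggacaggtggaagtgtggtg
DNA-PKcs-/- replicate 5, prey break at position 114568314: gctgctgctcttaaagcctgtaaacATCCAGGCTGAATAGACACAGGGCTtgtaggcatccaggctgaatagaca
Parts of these insertions recur elsewhere in their own reads. In DNA-PKcs-/- replicate 5 a run of 23 of the 25 inserted bases was also in the prey part of the read. In PQR/PQR replicate 2 a run of 10 of 16 bases was in the prey part, and in PQR/PQR replicate 1 a run of 12 of 25 bases was in the bait part.

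Along Sγ1, the PQR/PQR junctions lay less often in the 3′ 10 kb of the 30 kb window (positions 114558001 to 114568000) than those of DNA-PKcs-/- replicate 5. The 3′ 10 kb held 46 of 246 junctions (18.7%) in PQR/PQR replicate 1 and 8 of 64 (12.5%) in PQR/PQR replicate 2, against 77 of 179 (43.0%) in DNA-PKcs-/- replicate 5. Their Wilson 95% intervals were 14.3 to 24.0%, 6.47 to 22.8% and 36.0 to 50.3%, so that neither PQR/PQR interval overlapped the other genotype's. The difference was -24.3 percentage points for replicate 1 (95% interval -32.9 to -15.5, Fisher's exact test, two-sided, adjusted p = 1.93e-06) and -30.5 points for replicate 2 (-40.0 to -18.1, adjusted p = 7.95e-05). Between PQR/PQR replicates 1 and 2 the difference was 6.20 points (-4.97 to 14.3, Fisher's exact test, adjusted p = 0.364). Of the 8 results compared between libraries this was the 1 that passed in both PQR/PQR libraries, with p-values adjusted over 24 tests. With the authors' pools in place of the libraries the difference kept its sign and was smaller, at -6.54 points. In the DNA-PKcs-/- pool without replicate 5 the 3′ 10 kb held 8.29% of junctions, less than in either PQR/PQR library. The call thus rests on 1 DNA-PKcs-/- library, used in both tests, that stood far above the rest of its own pool. These tests compare libraries: with 2 libraries against 1 there are 3 splits, and a test between the genotypes cannot give an exact p below 0.333. By their read names, DNA-PKcs-/- replicate 5 was sequenced in one run with PQR/PQR replicate 1, and replicate 2 was not, so the comparison with replicate 1 is within a run.

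The median prey position was 114569492 in PQR/PQR replicate 1 and 114571160 in PQR/PQR replicate 2, against 114568307 in DNA-PKcs-/- replicate 5. The middle 50% of the junctions spanned 7640 bp and 8830 bp in the PQR/PQR libraries and 3267 bp in DNA-PKcs-/- replicate 5. In these libraries the PQR/PQR junctions were thus wider in their middle, but their outermost junctions were closer together, 13911 bp and 13373 bp apart against 24047 bp. The SD of position was similar, at 3975 and 4338 bp against 4308 bp. In the pools without these libraries the order of the middle 50% was turned, at 3254 bp for PQR/PQR and 4078 bp for DNA-PKcs-/-. In DNA-PKcs-/- replicate 5, 16 of 179 junctions (8.94%, interval 5.58 to 14.0%) lay 3′ of the lowest position of any PQR/PQR library, 114565315, and 4 lay 5′ of the highest, 114579264. Those limits were set by the PQR/PQR libraries, so these counts are a description without a test.

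In every library the junctions gathered on the 3′ side and, in smaller number, on the 5′ side of the stretch in use. The 1 kb bin from 114568001 to 114569000 was among the 3 fullest bins of every library, with 22.0% of junctions in PQR/PQR replicate 1, 17.2% in PQR/PQR replicate 2 and 21.8% in DNA-PKcs-/- replicate 5. The neighbouring bin from 114567001 to 114568000, inside the 3′ 10 kb, held 15.9% and 10.9% in the PQR/PQR libraries, against 22.9% in DNA-PKcs-/- replicate 5. A separate group lay towards the 5′ side, where the bin from 114577001 to 114578000 held 14.2% and 15.6% in the PQR/PQR libraries, against 7.26% in DNA-PKcs-/- replicate 5. PQR/PQR replicate 2 had as many junctions in the bin from 114571001 to 114572000 (17.2%) as in its fullest. The 5′ 10 kb (from position 114578001) held 7.72% and 15.6% of the PQR/PQR junctions, against 6.15% of the DNA-PKcs-/- junctions (Fisher's exact test, adjusted p = 0.661 and 0.0985).

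In the 3 libraries almost every junction had a prey position of its own. There were 241 different positions among the 246 junctions of PQR/PQR replicate 1, 64 among 64 in PQR/PQR replicate 2 and 178 among 179 in DNA-PKcs-/- replicate 5, with no position used more than 2 times. The PQR/PQR libraries had 3 positions in common, which is 1.24% of those of replicate 1 and 4.69% of those of replicate 2. PQR/PQR replicate 1 had 5 in common with DNA-PKcs-/- replicate 5 and PQR/PQR replicate 2 had 3.

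**Figure D1:**
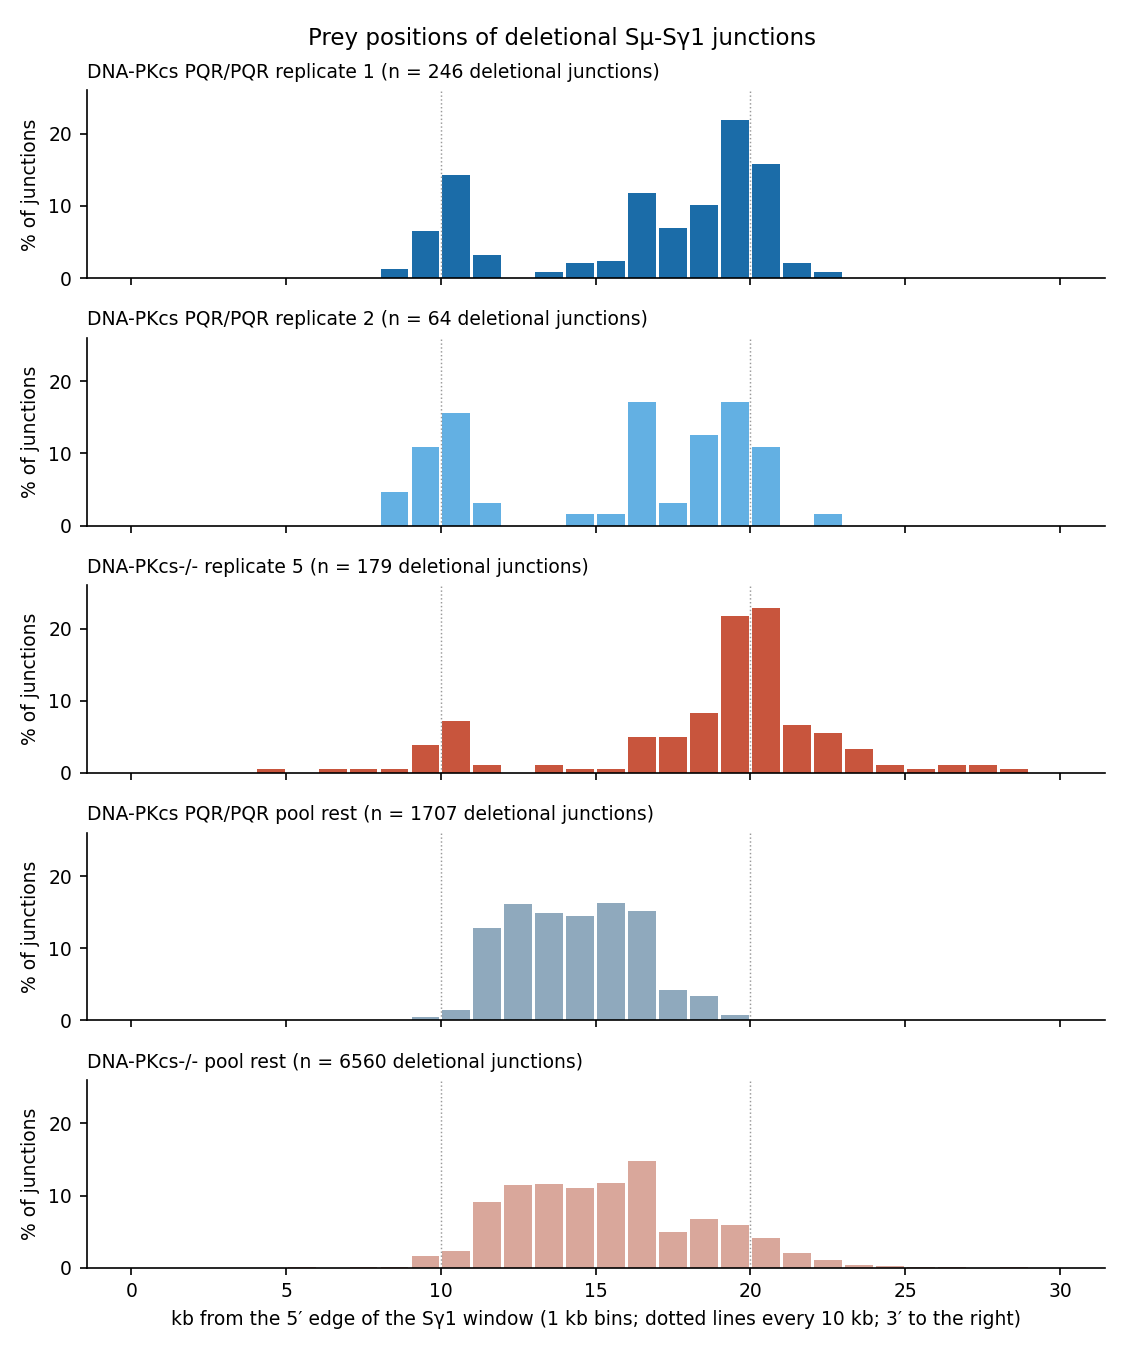
Share of deletional Sγ1 junctions (percent, vertical) in bins of 1 kb along the window (kb from its 5′ edge, horizontal) for the 3 libraries and for the rest of each genotype's pool. The 3 libraries gather on both sides of a sparse stretch, which holds 5.28, 3.13 and 2.23% of their junctions, whereas 61.7% and 45.8% of the junctions of the rests lie there.

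Among joins with MH, overlaps of 4 bp or more were a smaller share in both PQR/PQR libraries, and the difference passed the test for replicate 1 alone. MH of 4 bp or more made up 22 of 158 MH joins (13.9%) in PQR/PQR replicate 1 and 6 of 38 (15.8%) in PQR/PQR replicate 2, against 46 of 142 (32.4%) in DNA-PKcs-/- replicate 5. The difference was -18.5 points for replicate 1 (-27.7 to -8.97, Fisher's exact test, adjusted p = 0.00103) and -16.6 points for replicate 2 (-28.2 to -0.33, adjusted p = 0.112). Both libraries passed when MH of 3 bp or more was counted (Fisher's exact test, largest adjusted p = 0.00880) and when MH of 4 bp or more was taken over all deletional junctions (largest adjusted p = 0.0285). Neither passed when MH of 5 bp or more was counted, at 9.55% and 5.26% of the listed MH joins, against 17.6% (Fisher's exact test, adjusted p = 0.159 for each). At 6 bp or more PQR/PQR replicate 1 was not lower, with 8.23% and 2.63% in the PQR/PQR libraries, against 7.75%.

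The mean MH length among MH joins was 2.39 ± 1.69 bp (SD over 157 joins) in PQR/PQR replicate 1 and 2.05 ± 1.37 bp (38 joins) in PQR/PQR replicate 2, against 2.99 ± 1.75 bp (142 joins) in DNA-PKcs-/- replicate 5. The lengths, in 6 classes from 1 bp to 6 bp or more, differed for replicate 1 (exact Fisher-Freeman-Halton test, adjusted p = 0.00103), and for replicate 2 the adjusted p was 0.0985. The length classes did not all differ alike. Overlaps of 4 to 5 bp made up 5.70% and 13.2% of the PQR/PQR MH joins and 24.6% of the DNA-PKcs-/- MH joins, while those of 6 to 7 bp made up 6.33% and 2.63%, against 5.63%. At the short end, 1 bp overlaps made up 33.5% and 44.7% of the PQR/PQR MH joins, against 19.7% in DNA-PKcs-/- replicate 5. Overlaps of 8 bp or more were 3 of 158 MH joins in PQR/PQR replicate 1, 0 of 38 in PQR/PQR replicate 2, against 3 of 142 in DNA-PKcs-/- replicate 5, and the 0 allows up to 7.89%. A repeat chosen after seeing the data kept joins whose first 10 prey bases equalled the germline. MH of 4 bp or more fell from 21 of 157 listed MH joins to 15 of 150 in PQR/PQR replicate 1. It was 5 of 37 in PQR/PQR replicate 2, against 41 of 134 (Fisher's exact test, adjusted p = 0.000166 and 0.103). The means were 2.18 and 1.92 bp, against 2.89 bp. Single length classes were not compared again.

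**Figure D2:**
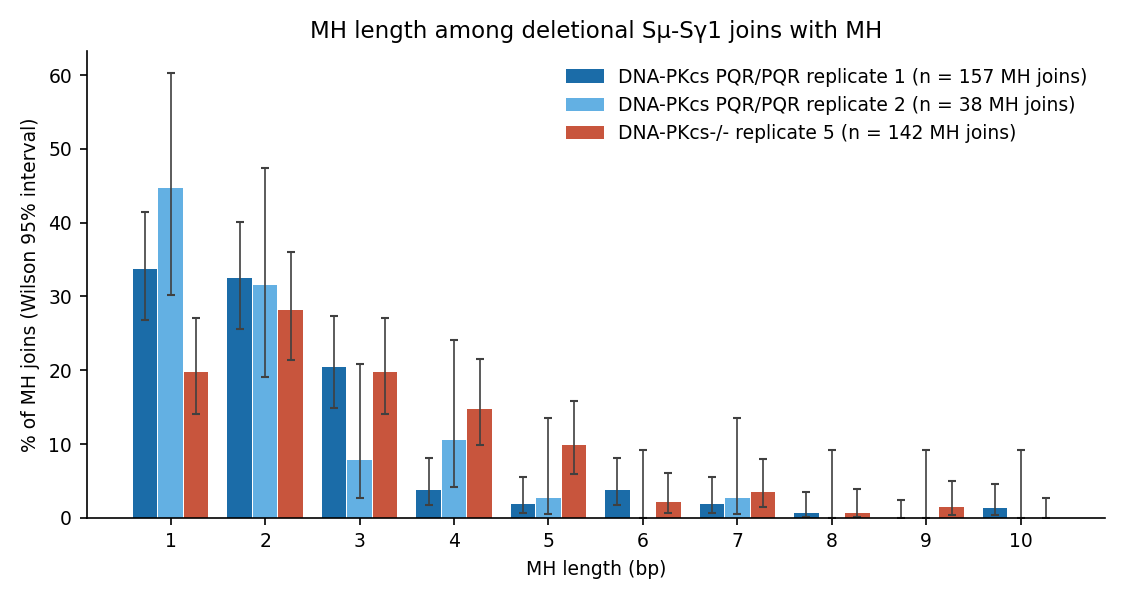
Share of MH joins (percent, vertical; bars with Wilson 95% intervals) by MH length in bp (horizontal) in each library. Overlaps of 1 bp make up 33.8% and 44.7% of the listed MH joins in the PQR/PQR libraries and 19.7% in DNA-PKcs-/- replicate 5. The order is turned at 4 bp, with 3.82% and 10.5% against 14.8%, and at 5 bp, with 1.91% and 2.63% against 9.86%. At 6 bp PQR/PQR replicate 1 is higher again, with 3.82% against 2.11%.

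The sequences of the MH of 4 bp or more were mostly used once. The 73 such joins of the 3 lists held AGCT 6 times, 2 in PQR/PQR replicate 1 and 4 in DNA-PKcs-/- replicate 5, and the 7 bp CCAGGCA 5 times, 1 in each PQR/PQR library and 3 in DNA-PKcs-/- replicate 5. CCAGGCA begins at bait base 29, and CAGCT, found 4 times, begins at base 63 over the first AGCT of the bait. In all, AGCT was part of the MH in 5 of 21 such joins in PQR/PQR replicate 1, 0 of 6 in PQR/PQR replicate 2, against 9 of 46 in DNA-PKcs-/- replicate 5, intervals of 10.6 to 45.1%, 0 to 39.0% and 10.7 to 33.2%.

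Among all deletional junctions, direct joins, in which the ends share no base, made up 55 of 246 junctions (22.4%) in PQR/PQR replicate 1 and 20 of 64 (31.3%) in PQR/PQR replicate 2, against 25 of 179 (14.0%) in DNA-PKcs-/- replicate 5. Both PQR/PQR libraries were higher in value, by 8.39 points (0.859 to 15.5, Fisher's exact test, adjusted p = 0.0985) and 17.3 points (5.69 to 30.2, adjusted p = 0.0209), and 1 of the 2 passed. Both passed over junctions without an insertion (Fisher's exact test, largest adjusted p = 0.0447). Joins with MH of any length made up 64.2% and 59.4% of the PQR/PQR junctions, against 79.3%. Insertions made up 13.4% and 9.38%, against 6.70% (Fisher's exact test, adjusted p = 0.0985 and 0.661). Insertions were short, with medians of 3 and 1 bp in the PQR/PQR libraries, against 3 bp, and insertions of 5 bp or more numbered 10, 1 and 3.

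Joining class and position were read together within each library. Of the junctions in the middle 10 kb, MH joins with 4 bp or more were 16 of 115 MH joins (13.9%) in PQR/PQR replicate 1 and 4 of 29 (13.8%) in PQR/PQR replicate 2, against 25 of 69 (36.2%) in DNA-PKcs-/- replicate 5. In the 3′ 10 kb they were 5 of 29 and 1 of 3, against 17 of 62 (27.4%). In the middle 10 kb both PQR/PQR values thus stood below that of DNA-PKcs-/- replicate 5, as over the whole window, and the 3′ counts of PQR/PQR replicate 2 are too small to compare.

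Prey on the minus strand made up 246 of 272 Sγ1 junctions (90.4%) in PQR/PQR replicate 1, 64 of 77 (83.1%) in PQR/PQR replicate 2, against 179 of 211 (84.8%) in DNA-PKcs-/- replicate 5. The differences were 5.61 points (-0.26 to 11.8) and -1.72 points (-12.5 to 6.96), with adjusted p = 0.146 and 0.782 by Fisher's exact test.

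The rest of each pool, that is, the pool without these libraries, held 1707 deletional Sγ1 junctions for PQR/PQR and 6560 for DNA-PKcs-/-. What libraries they come from is not stated in the labels. Unlike the libraries, the rests held many repeated positions. There were 1392 different positions in the PQR/PQR rest and 4402 in the DNA-PKcs-/- rest, with up to 5 and 10 junctions at a single position. Without molecular identifiers, copies of a join cannot be told from separate joins, so the p-values against the rests may be too small. Deletional Sγ1 joins were 84.8% of all junctions of the PQR/PQR rest and 55.5% of the DNA-PKcs-/- rest, against 14.6% and 13.6% in the PQR/PQR libraries and 21.3% in DNA-PKcs-/- replicate 5. Each library differed from the rest of its own pool in position, and among the joining classes only the insertions of DNA-PKcs-/- replicate 5 gave a difference that passed with MH counted from 4 bp. With MH of 6 bp or more DNA-PKcs-/- replicate 5 also differed, at 7.75% of MH joins against 14.7% in its rest (-6.99 points, -10.5 to -1.31, Fisher's exact test, adjusted p = 0.0313). The deletional share of Sγ1 joins was also lower in the libraries, at 90.4% and 83.1% against 96.4% in the PQR/PQR rest, and at 84.8% against 92.2% in the DNA-PKcs-/- rest (Fisher's exact test, adjusted p = 9.12e-05, 1.68e-05 and 0.000743). In all, 15 of 24 tests with the rests passed.

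The 3′ 10 kb held 18.7% of the junctions of PQR/PQR replicate 1 and 12.5% of those of replicate 2, against 0 of 1707 in the PQR/PQR rest, which allows a share of up to 0.176% (Fisher's exact test, adjusted p = 9.34e-43 and 7.49e-12 over 24 tests). It held 43.0% of the junctions of DNA-PKcs-/- replicate 5, against 8.29% in the DNA-PKcs-/- rest (Fisher's exact test, adjusted p = 2.38e-33). The span from 114572001 to 114576000, 4 kb long, was picked as the run of bins in which the share of the DNA-PKcs-/- rest was at least 3 times that of every library. It held 13, 2 and 4 junctions of PQR/PQR replicate 1, PQR/PQR replicate 2 and DNA-PKcs-/- replicate 5, against 1053 of 1707 (61.7%) in the PQR/PQR rest and 3002 of 6560 (45.8%) in the DNA-PKcs-/- rest. The cause of this split in position was not tested.

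Direct joins made up 22.4% of PQR/PQR replicate 1 and 31.3% of PQR/PQR replicate 2, against 23.7% of the PQR/PQR rest (differences -1.31 points, -6.50 to 4.63, and 7.58 points, -2.65 to 19.9), and 14.0% of DNA-PKcs-/- replicate 5, against 12.9% of its rest (1.12 points, -3.29 to 7.01). MH of 4 bp or more made up 18.5% of the MH joins of the PQR/PQR rest, and the libraries differed from it by -4.56 points (-9.71 to 2.07) and -2.69 points (-11.4 to 12.1). It made up 33.6% in the DNA-PKcs-/- rest, and DNA-PKcs-/- replicate 5 differed by -1.22 points (-8.50 to 6.96). Insertions were the exception, at 6.70% in DNA-PKcs-/- replicate 5, against 14.1% in its rest (-7.40 points, -10.4 to -2.68, Fisher's exact test, adjusted p = 0.00480).

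The rests hold no junction of the libraries. For direct joins, MH of 4 bp or more and the 3′ 10 kb they stood in the same order by genotype as the libraries. For insertions and the 5′ 10 kb they did not. The deletional share of Sγ1 joins was 96.4% in the PQR/PQR rest and 92.2% in the DNA-PKcs-/- rest (4.22 points, 3.08 to 5.22, Fisher's exact test, adjusted p = 9.36e-11). In that share the PQR/PQR libraries lay on either side of DNA-PKcs-/- replicate 5, so the libraries gave no order. The 3′ 10 kb held 0 of 1707 junctions of the PQR/PQR rest, against 544 of 6560 of the DNA-PKcs-/- rest (-8.29 points, -8.98 to -7.61, Fisher's exact test, adjusted p = 6.42e-56). Both PQR/PQR libraries, at 18.7% and 12.5%, nevertheless lay above the DNA-PKcs-/- rest there, at 8.29%. Direct joins were 10.8 points higher in the PQR/PQR rest than in the DNA-PKcs-/- rest (23.7% against 12.9%, interval 8.69 to 13.0, Fisher's exact test, adjusted p = 1.50e-25). MH of 4 bp or more among MH joins was 15.1 points lower (18.5% against 33.6%, -17.7 to -12.4, Fisher's exact test, adjusted p = 3.02e-23). MH of 6 bp or more was 7.67% of the MH joins in the PQR/PQR rest and 14.7% in the DNA-PKcs-/- rest, whereas in the libraries it was 8.23% and 2.63% for PQR/PQR, against 7.75%. Insertions were 12.9% in the PQR/PQR rest and 14.1% in the DNA-PKcs-/- rest (Fisher's exact test, adjusted p = 0.298). The 5′ 10 kb held 0.527% of the PQR/PQR rest and 1.97% of the DNA-PKcs-/- rest (Fisher's exact test, adjusted p = 1.45e-05), whereas the PQR/PQR libraries stood above DNA-PKcs-/- replicate 5 there. The numbers of mice behind the rests are not given, so these p-values cover counting error and not the spread between mice.

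**Figure D3:**
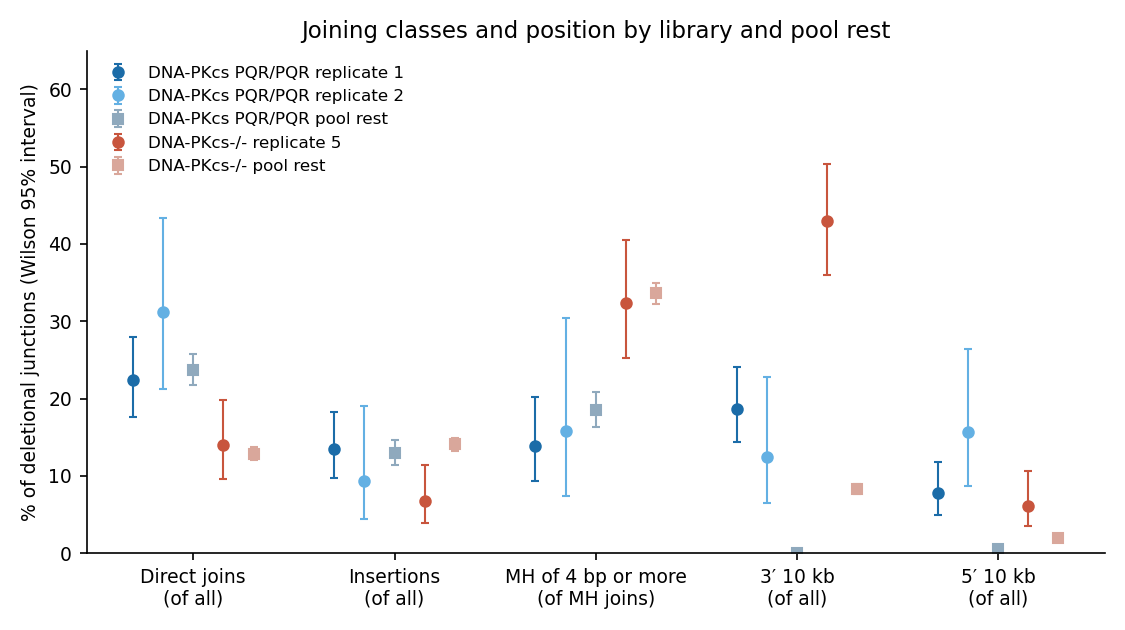
Shares of deletional Sγ1 junctions (percent with Wilson 95% intervals, vertical) by joining class and position (horizontal) for the libraries (circles) and the rests of the pools (squares). Direct joins are 22.4% and 31.3% in the PQR/PQR libraries and 23.7% in their rest, and 14.0% in DNA-PKcs-/- replicate 5 and 12.9% in its rest. MH of 4 bp or more is 13.9% and 15.8% against 18.5% in the PQR/PQR rest, and 32.4% against 33.6% for DNA-PKcs-/-. In the 3′ 10 kb the libraries hold 18.7, 12.5 and 43.0% and the rests 0 and 8.29%.

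On the Sμ side, the bait ended between 31 and 253 bases from the start of the nested primer. The median bait length was 60 bases in PQR/PQR replicate 1 and 53.5 bases in PQR/PQR replicate 2, against 59 bases in DNA-PKcs-/- replicate 5. Bait longer than the median of the 3 libraries, 59 bases, was found in 50.4% and 39.1% of the PQR/PQR junctions, against 49.7% (Fisher's exact test, adjusted p = 0.922 and 0.209). Bait of over 100 bases was found in 10 of 244 and 0 of 64 PQR/PQR junctions, against 17 of 179. Over the 3 libraries together the place used most was 65 bases into the bait, inside its first AGCT, with 11, 1 and 5 junctions. It led only through PQR/PQR replicate 1, as base 33, outside either AGCT, held 4, 3 and 7. The 4 bases of the first AGCT together held the bait end of 10.2% and 7.81% of the PQR/PQR junctions, against 7.26%. Those of the second AGCT held 1.23% and 3.13%, against 6.15%. Other stretches of 4 bases were not counted for comparison. All 3 intervals overlapped at the first AGCT, and at the second too. At the second, those of PQR/PQR replicate 1 (0.419 to 3.55%) and DNA-PKcs-/- replicate 5 (3.47 to 10.7%) barely met. These differences were not tested. The median length of the aligned prey was 175 and 110.5 bases in the PQR/PQR libraries, against 141 bases.

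**Figure D4:**
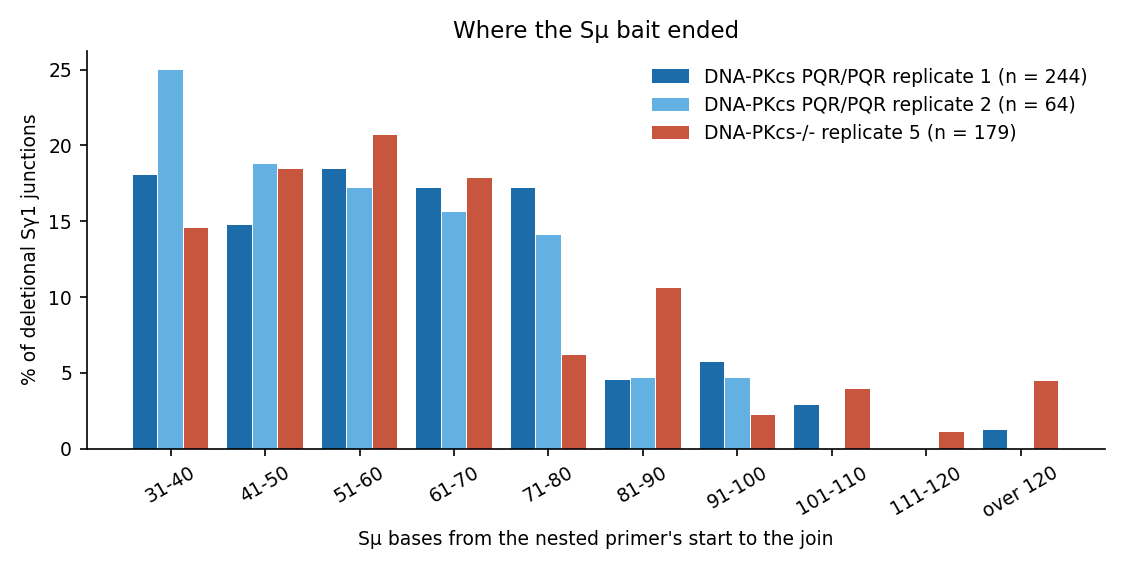
Share of deletional Sγ1 junctions (percent, vertical) by the number of Sμ bases from the start of the nested primer to the join (classes of 10 bases, horizontal) in each library. Junctions of over 120 bases are 1.23% in PQR/PQR replicate 1, 0 of 64 in PQR/PQR replicate 2 and 4.47% in DNA-PKcs-/- replicate 5.

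The letters AGCT, which read the same on both strands, were searched in the 20 germline bases that the lists give around each prey break. In PQR/PQR replicate 1 they were present for 79 of 244 deletional junctions (32.4%, interval 26.8 to 38.5%). PQR/PQR replicate 2 had them for 22 of 64 (34.4%, 23.9 to 46.6%), against 40 of 179 (22.3%, 16.9 to 29.0%) in DNA-PKcs-/- replicate 5. Both PQR/PQR intervals overlap that of DNA-PKcs-/- replicate 5, and the difference was not tested. Inverted Sγ1 junctions had the letters in 26.9% and 23.1% of cases in the PQR/PQR libraries, against 28.1% in DNA-PKcs-/- replicate 5, with intervals that overlap those of the deletional junctions. In junctions of the same libraries outside the IgH locus the letters were present in 8.70%, 7.07% and 7.55% of the same length of sequence, with intervals below those of the deletional junctions, but not all below those of the inverted ones. GC made up 55.8% and 55.6% of these bases at the deletional PQR/PQR junctions and 53.6% at those of DNA-PKcs-/- replicate 5, against 54.8, 53.8 and 51.7% at inverted junctions and 47.5, 46.3 and 51.4% outside IgH. Letters spanning the 6 bases across the break itself were found at 13, 6 and 6 junctions. A match is a description of the sequence and does not mark where AID acted.

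**Figure D5:**
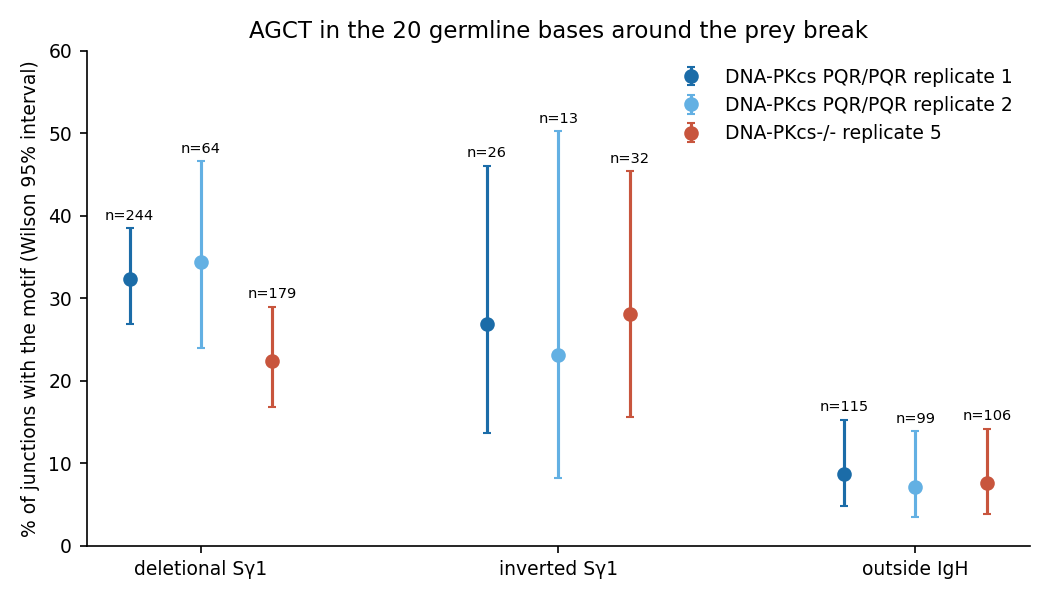
Share of junctions (percent with Wilson 95% intervals, vertical) with AGCT in the 20 germline bases around the prey break, for deletional Sγ1, inverted Sγ1 and non-IgH junctions (horizontal) of each library. The deletional junctions lie at 32.4, 34.4 and 22.3%, the inverted ones at 26.9, 23.1 and 28.1% and those outside IgH between 7.07 and 8.70%.

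Deletional Sγ1 joins were then set against inverted Sγ1 joins, deletional Sμ joins and deletional Sε joins of the same library, for direct joins, insertions and MH of 4 bp or more among MH joins. Of 27 tests, 1 passed: insertions were 6.70% of the deletional Sγ1 joins and 18.5% of the deletional Sμ joins of DNA-PKcs-/- replicate 5 (-11.8 points, -18.8 to -4.91, Fisher's exact test, adjusted p = 0.0293). For MH of 4 bp or more, Sγ1 stood at 13.9%, 15.8% and 32.4% in PQR/PQR replicate 1, PQR/PQR replicate 2 and DNA-PKcs-/- replicate 5, and Sμ at 8.97%, 12.8% and 22.7%. The Sγ1 value was thus higher than the Sμ value in all 3 libraries, by 4.96 points (-1.43 to 11.9), 3.02 points (-11.9 to 19.1) and 9.74 points (-0.98 to 20.0), and no difference passed alone (adjusted p = 0.531, 0.821 and 0.354 by Fisher's exact test). Within DNA-PKcs-/- replicate 5 direct joins were 14.0% in Sγ1 and 24.8% in Sε (-10.8 points, -20.4 to -1.75, Fisher's exact test, adjusted p = 0.191).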

How the data were processed

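Junctions were found by the authors, with Bowtie2 and mm9 per the submitters' processing notes; of versions, filters and the junction caller, nothing is given in the sources used here. Other values, that is, counts of junctions by region, strand and class, prey positions and single-junction alignment bounds, were used as deposited, with no normalization. Depth was 1681, 472 and 842 junctions in PQR/PQR replicates 1 and 2 and DNA-PKcs-/- replicate 5. Reads carry no molecular identifiers, so intervals and limits for counts of 0 (3 counts) cover counting error only.

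MH was read as the overlap of bait and prey alignments, and the classes were checked against the deposited counts. Such an overlap can include bases that differ from the germline prey, and the main counts were not limited by this. In PQR/PQR replicate 1, 2 deletional lines were not used here, so list values rest on 244 of 246 junctions. The rest of a pool is the pool minus its libraries. Single positions had to hold 3 or more junctions in a library to be named, and none did. In the rests 44 positions for PQR/PQR and 473 for DNA-PKcs-/- held 3 or more, and these were not named. Bins are the 3 fullest of 1 kb per library or rest, and joins printed are those of longest MH, longest insertion, and the direct join nearest the median. Members, lists and rules were chosen with earlier results of these data known.

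Shares were compared by two-sided Fisher's exact tests, and MH lengths by exact Fisher-Freeman-Halton tests (R 4.3.3, scipy 1.17.1), with Benjamini-Hochberg adjustment within families of 24 tests between libraries, 24 against rests and 27 against like junctions. A difference was called when both PQR/PQR libraries passed 0.05 in the same direction.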

Additional observations from a re-analysis of the deposited data

Results flagged for a closer look

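Of the 9 comparisons with like junctions made in each library, 4 had this pattern of signs: the difference between deletional Sγ1 joins and like joins had one sign in both PQR/PQR libraries and the other in DNA-PKcs-/- replicate 5. The 4 are singled out by that pattern, which chance can give too. Whether these differences differ between genotypes was not tested. Direct joins, Sγ1 minus Sμ, stood at -7.04 and -1.22 points in PQR/PQR replicates 1 and 2 and 6.45 points in DNA-PKcs-/- replicate 5. Insertions, Sγ1 minus Sμ, stood at 1.34 and 2.88 points, against -11.8 points. Insertions, Sγ1 minus Sε, stood at -1.12 and -2.66 points, against 1.58 points. MH of 4 bp or more among MH joins, deletional minus inverted Sγ1, stood at -11.1 and -6.43 points, against 14.2 points, with 16, 9 and 22 inverted MH joins behind it.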

How the results depend on the processing

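Values are the mean of the PQR/PQR libraries minus DNA-PKcs-/- replicate 5, in percentage points unless bp is named. The lower 3′ 10 kb share kept its direction and its call under all 9 alternatives, from -30.5 to -6.54, the smallest with the authors' pools. Leaving out a PQR/PQR library leaves 1 test against DNA-PKcs-/-, and gave -1.72 to 5.61 for the deletional share (turned without replicate 1), 8.39 to 17.3 for direct joins (passing without replicate 1), -18.5 to -16.6 for MH of 4 bp or more (passing without replicate 2), -0.94 to -0.60 bp for mean MH length (passing without replicate 2), and -10.7 to 0.69 for long bait (turned without replicate 2). With prey of 50 bp or more the deletional share turned to -0.19. Results that passed only under an alternative were direct joins (12.7 with inverted joins added, 15.2 without insertions), mean MH length (-0.73 bp with inverted joins added), MH of 4 bp or more (-23.4 at 3 bp or more, -16.5 over all deletional junctions) and the 5′ share (15.3 for the 5′ 12 kb). With the authors' pools, deletional share (3.17), direct joins (10.9) and MH of 4 bp or more (-15.7) passed, insertions turned to -1.01 and the 5′ share to -0.19, or -0.63 with each position counted once; pools cannot give mean MH length or bait length. After seeing the data, tests with like junctions were repeated for MH of 6 bp or more: 4 of 27 passed in place of 1. The 3 added are higher Sγ1 shares, 8.23% against 0.897% in Sμ and 2.61% in Sε of PQR/PQR replicate 1, and 7.75% against 0.781% in Sμ of DNA-PKcs-/- replicate 5. Against the rests, 15 of 24 tests passed, 15 with each position counted once, 16 with MH of 6 bp or more and 14 without the sparse 4 kb (all 3 chosen after seeing the data). Counting positions once and leaving out the sparse 4 kb changed only the tests of the 3′ and 5′ shares. The 6 bp limit changed only those of long MH. Direct joins, insertions, MH and the deletional share were thus not tested against the rests with repeated positions removed. MH of 5 bp or more gave -10.2 and passed in neither library. The sheets of large insertions hold 0 Sγ1 lines, so adding them changed nothing and is not counted. Of the other 64 alternative values of differences between libraries or pools, 46 kept direction and side of the threshold. The cause of each change was not tested. No paired analysis was possible because the groups share no replicate number. Depth limits PQR/PQR replicate 2 most, with 64 junctions.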
